A study of Mus musculus with 6 samples.

Results

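The genes described here encode the proteins of the mitochondrial ribosome. They were chosen by name, as the protein-coding genes of the GENCODE vM21 mouse annotation whose symbol begins with Mrpl or Mrps followed by a digit, and 78 of the 36047 genes in the files met this rule. Of the 78, 49 are Mrpl genes and 29 are Mrps genes, and they lie on 17 chromosomes. A further 5 genes with such symbols are not annotated as protein-coding and were left out. Every member passed the filter on low counts, so the 78 were all tested among 13451 genes.

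The libraries were made from polyA RNA of wild-type MLE-12 cells, an established epithelial line from mouse lung that carries a viral large T antigen. Of the 6 libraries, 3 came from cells given PBS and 3 from cells given 5% cigarette smoke extract (CSE) of optical density 2.0, a solution of smoke constituents in the medium. Both were added at 30% cell density, and cells were collected 24 h later. All libraries come from 1 cell line, the labels do not say whether they were separate cultures, so p-values reflect the variation among these libraries alone, and that variation may be technical. The labels' RNA extraction text speaks of lung tissue although the samples themselves are labelled MLE-12.

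Mitochondria carry their own ribosome, which translates the few proteins encoded in mitochondrial DNA, all of them membrane subunits of the oxidative phosphorylation complexes. Its ribosomal RNAs are made inside the organelle, while all of its proteins are encoded in the nucleus, translated in the cytosol and imported. The small subunit binds the messenger RNA and decodes it, and the large subunit joins the amino acids. Some of the proteins descend from bacterial ribosomal proteins, and others are found only in mitochondrial ribosomes. In lung epithelium, this ribosome supplies the same respiratory chain as in other tissues.

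Libraries held between 12093009 and 24050167 estimated counts. Of the epithelial markers, Krt19 (mean 1005 TPM in PBS against 493 TPM in CSE) and Krt8 (206 and 160 TPM) were abundant, while Epcam was at 2.36 and 1.54 TPM and Krt18 and Cldn4 were under 1 TPM. Of the alveolar type 2 markers, Nkx2-1 was at 121 and 106 TPM and Abca3 at 34.7 TPM in PBS, while the surfactant gene Sftpc was at 3.09 and 0.942 TPM and Sftpa1 at 0. Of 5 tested epithelial markers, 4 fell in CSE, and the 7 listed had a summed level of 1181 to 1299 TPM in PBS against 614 to 699 TPM in CSE. The alveolar type 2 list summed to 152 to 171 TPM in PBS and 135 to 147 TPM in CSE. The leukocyte list summed to 2.93 to 6.20 TPM over all libraries with Adgre1 at 0, and the endothelial list to 0.746 to 2.18 TPM with Cdh5 at 0. The fibroblast list summed to 868 to 1126 TPM in PBS against 477 to 544 TPM in CSE, mostly from Dcn. Of 3 tested fibroblast markers, 2 fell in CSE, while Pdgfra rose from a mean of 2.67 TPM in PBS to 4.49 TPM in CSE. The part of these marker shifts in the results below was not tested.

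The mitochondrial ribosomal protein genes were slightly higher in CSE than in PBS as a group, and few of them singly. By edgeR's quasi-likelihood test, with p-values adjusted by Benjamini-Hochberg over all tested genes, 6 of 78 members (7.69%) rose at an adjusted p under 0.05 and none fell. Among all tested genes, 4.32% rose and 7.12% fell, so the excess of risen members over the background amounts to few genes. DESeq2 called 10 members higher (background 4.97%) and limma-voom 7 (background 4.52%), and each called 0 lower (background 7.51% and 7.11%). The fitted log2 change was above 0 in 74 of 78 members (94.9%), against 50.9% of all tested genes. An unadjusted p under 0.05 was reached by 33 members with a higher value (background 12.6%) and by 0 with a lower one (background 13.4%). Many members (35) are under 1000 bases long, and of the 1221 tested genes under 1000 bases 69.7% had a fitted value above 0. Of these 1221 genes, 19.7% had a higher and 5.24% a lower value at an unadjusted p under 0.05.

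The changes were small. The median fitted log2 change of the members was 0.23, with quartiles of 0.14 and 0.34, against a median of 0.0056 over all tested genes. The largest fitted fold was 1.46 and the smallest 0.913, and no member reached a 2-fold difference. In log2 CPM, counts scaled to library size adjusted by edgeR's TMM factors, the 3 CSE libraries lay above the 3 PBS libraries in 21 members (background 15.1%). They lay below them in 1 (background 16.2%). In TPM, which also divides by effective transcript length, they lay above in 18 members (background 7.89%) and below in 3 (background 19.3%). In bulk RNA, fewer cells of a type and less RNA per cell cannot be told apart.

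**Figure D1:**
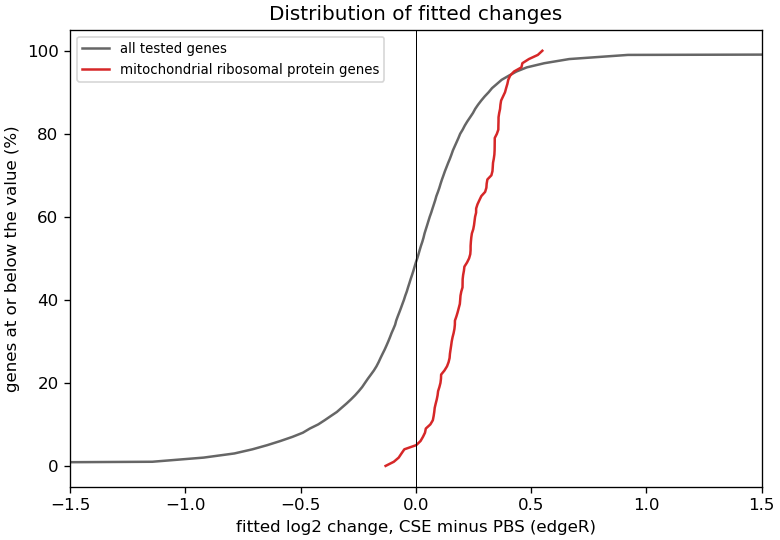
Cumulative distribution of the fitted log2 change (CSE minus PBS, edgeR) for the 78 mitochondrial ribosomal protein genes (red) and all 13451 tested genes (grey), with the share of genes at or below each value on the vertical axis. The red curve is steep and crosses its middle at 0.23, while the grey curve is wide and crosses at 0.0056.

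Libraries of the same group differed in these genes by as much as the groups did. Members took 0.407%, 0.373% and 0.357% of all counts in PBS replicates 1, 2 and 3, and 0.402%, 0.426% and 0.449% in CSE replicates 1, 2 and 3. PBS replicate 1 thus lay above CSE replicate 1, and the groups overlapped. Averaged over members, log2 CPM relative to the PBS mean was 0.16, −0.08 and −0.08 with PBS and 0.10, 0.21 and 0.35 with CSE, while the averages over all tested genes lay between −0.03 and 0.02. PBS replicate 1 was the highest PBS library in 62 members and CSE replicate 3 the highest CSE library in 63, and CSE replicate 3 was the highest of all 6 libraries in 58. The number of members called higher moved with each library left out. It was 27 without PBS replicate 1 (background 6.99%), 4 without PBS replicate 2 (background 3.97%) and 3 without PBS replicate 3 (background 2.32%). Without CSE replicates 1, 2 and 3, it was 8, 4 and 1 (backgrounds 2.7%, 2.05% and 2.04%).

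**Figure D2:**
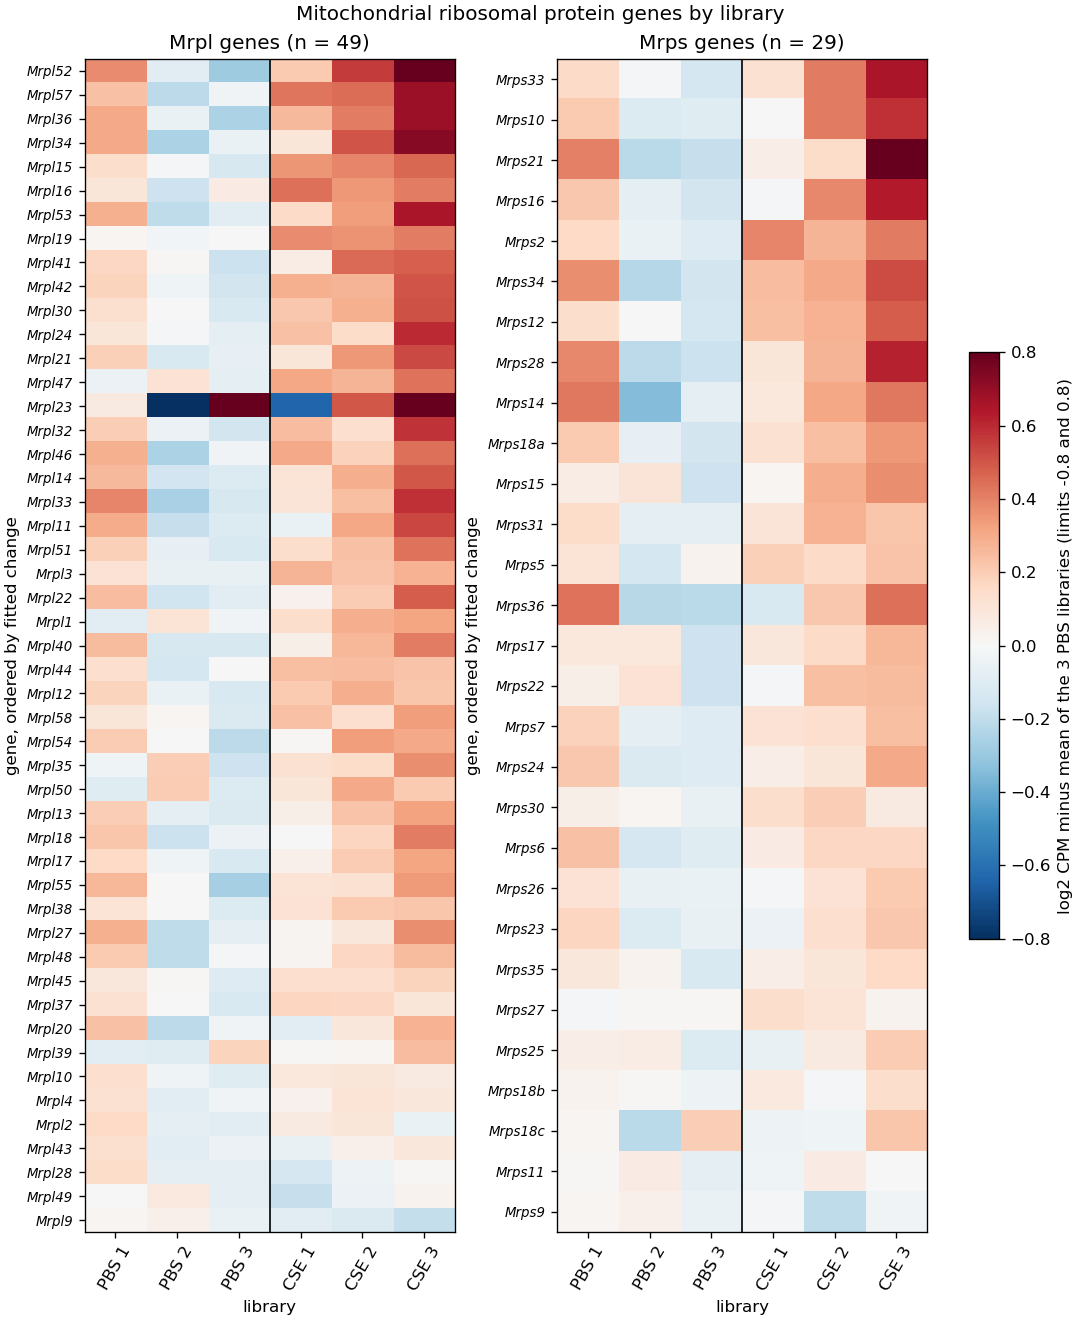
Each row is a mitochondrial ribosomal protein gene and each column a library; colour gives log2 CPM minus the mean of the 3 PBS libraries, with the scale ending at −0.8 and 0.8, and genes are ordered by fitted change. CSE replicate 3 is the reddest column, and PBS replicate 1 is redder than the other PBS columns in 62 of 78 genes.

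The 6 members that rose were 5 of the large subunit and 1 of the small. Mrpl57 encodes a large-subunit protein found only in mitochondria (chromosome 14, 57826234 to 57829296, plus strand, GRCm38). Its level was 149, 126 and 133 TPM with PBS and 182, 174 and 178 TPM with CSE. All 3 CSE libraries lay above all PBS libraries, and they differed little from one another. Mrpl57 rose from 136 ± 11.7 to 178 ± 3.90 TPM (SD, n = 3), by 0.52 ± 0.12 on the log2 scale (SE; edgeR adjusted p = 0.0153). It was also the one member called by limma on the TPM scale, and dropping PBS replicate 3 or CSE replicate 3 ended its call.

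Mrpl19 encodes a homologue of bacterial L19, which lies at the contact between the subunits in bacteria (chromosome 6, 81957851 to 81965958, minus strand). Its level was 15.5, 14.6 and 15.7 TPM with PBS and 17.7, 18.3 and 18.6 TPM with CSE. The groups did not overlap, and both were tight. It rose by 0.38 ± 0.07 on the log2 scale (edgeR adjusted p = 0.00393) and kept this call without any 1 of the 6 libraries, but not with limma on the TPM scale. Of the 31-base words of its most abundant transcript, 41.3% also occur in other genes, chiefly Gcfc2, so its counts are estimates that depend on how kallisto shares reads.

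Mrpl30 was the most abundant member that rose (chromosome 1, 37890477 to 37898535, plus strand), a homologue of bacterial L30. It stood at 273, 305 and 255 TPM with PBS and at 318, 310 and 338 TPM with CSE. PBS replicate 2 came close to the lowest CSE library without reaching it. Its rise of 0.34 ± 0.09 on the log2 scale (edgeR adjusted p = 0.0382) was the least stable of the 6: it was lost with any of 4 libraries left out, with the TPM scale, with GC and length trends removed, with an effective length offset, with coding transcripts only and with the replicate number as a block.

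Mrpl16, a homologue of bacterial L16, which lies near the site where the large subunit receives the incoming transfer RNA, is on chromosome 19 (11770391 to 11774960, plus strand). Its level was 45.8, 42.2 and 50.1 TPM with PBS and 61.9, 54.9 and 54.4 TPM with CSE, with no overlap. It rose by 0.40 ± 0.09 (log2; edgeR adjusted p = 0.0168), and the call was lost without any 1 of the CSE libraries. Mrps2, the single small-subunit gene called, a homologue of bacterial S2 (chromosome 2, 28468066 to 28471178, plus strand), was at 38.1, 35.2 and 35.3 TPM in PBS and at 46.7, 41.4 and 43.4 TPM in CSE. Every CSE library was above every PBS library. Mrps2 rose by 0.36 ± 0.09 (log2; edgeR adjusted p = 0.0222), a call lost without CSE replicate 1, CSE replicate 3, PBS replicate 2 or PBS replicate 3. Both calls were lost on the TPM scale, and that of Mrpl16 also with GC and length trends removed.

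Mrpl15, a homologue of bacterial L15 (chromosome 1, 4773206 to 4785739, minus strand), was at 94.2, 73.2 and 76.5 TPM with PBS and at 88.9, 96.0 and 111 TPM with CSE. In TPM the groups overlapped, because PBS replicate 1 lay above CSE replicate 1, while in log2 CPM they did not. It rose by 0.40 ± 0.08 on the log2 scale (edgeR adjusted p = 0.0091). The call was lost on the TPM scale, with an offset for effective length and without CSE replicate 3.

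**Figure D3:**
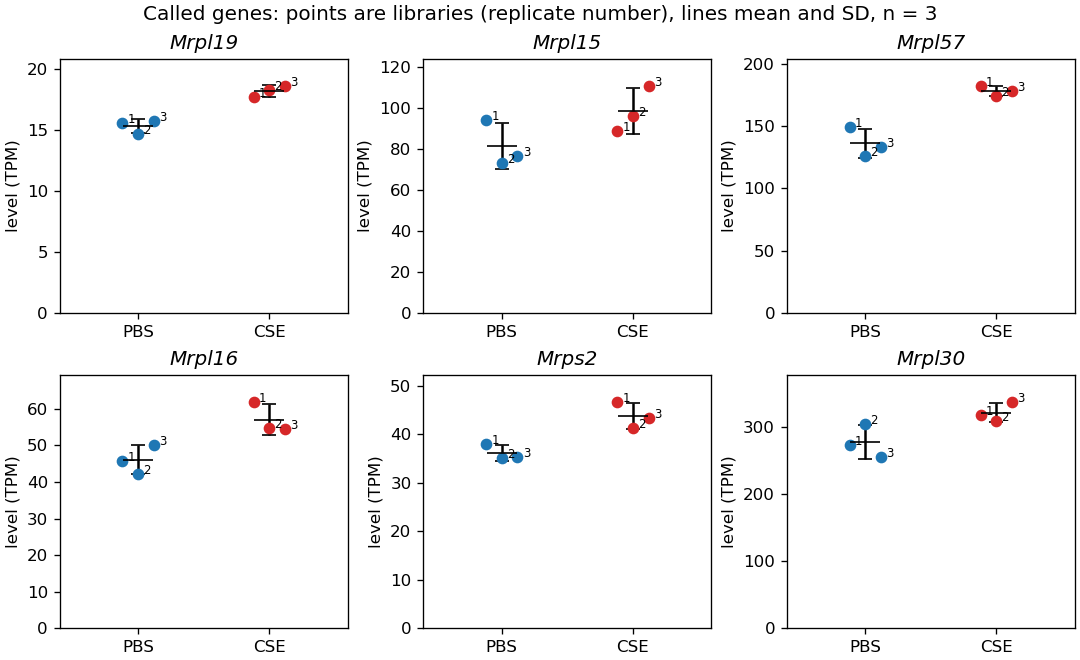
Level in TPM of the 6 members that rose, by library (points, numbered by replicate), with the mean and SD of each group (n = 3); vertical axes start at 0. The CSE points lie above the PBS points in 5 panels and overlap in that of Mrpl15, where PBS replicate 1 is at 94.2 TPM.

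Promoters are shown for 4 members: Mrpl57, with the largest rise, Mrpl30, the most abundant that rose, Mrpl52, with the highest fitted value of all 78, and Mrpl9, with the lowest. Each is the window from 250 bases before to 50 after the gene's start, taken from RefSeq on GRCm38.p6. Capitals mark matches to the core binding motif of NRF1 (10 letters with a free base after the fifth, shown by the capitals of Mrpl9, and on the opposite strand in Mrpl30) or to the core motif of ETS factors such as GABP (CCGGAAG) on either strand. NRF1 and GABP are known regulators of nuclear genes for mitochondrial proteins.
Mrpl57 promoter, chr14:57825989-57826288, plus strand: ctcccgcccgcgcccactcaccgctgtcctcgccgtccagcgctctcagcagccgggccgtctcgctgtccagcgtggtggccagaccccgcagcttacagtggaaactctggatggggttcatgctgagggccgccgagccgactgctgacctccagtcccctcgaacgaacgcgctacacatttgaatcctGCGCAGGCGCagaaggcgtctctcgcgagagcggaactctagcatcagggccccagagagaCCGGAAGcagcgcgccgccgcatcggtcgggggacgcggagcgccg
Mrpl30 promoter, chr1:37890227-37890526, plus strand: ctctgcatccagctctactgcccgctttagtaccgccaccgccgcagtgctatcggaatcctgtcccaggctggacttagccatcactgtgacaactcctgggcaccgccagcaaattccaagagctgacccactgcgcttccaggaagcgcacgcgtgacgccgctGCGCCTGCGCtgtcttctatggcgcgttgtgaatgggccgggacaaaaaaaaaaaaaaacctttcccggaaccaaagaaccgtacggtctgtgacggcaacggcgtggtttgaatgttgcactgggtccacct
Mrpl52 promoter, chr14:54426659-54426958, plus strand: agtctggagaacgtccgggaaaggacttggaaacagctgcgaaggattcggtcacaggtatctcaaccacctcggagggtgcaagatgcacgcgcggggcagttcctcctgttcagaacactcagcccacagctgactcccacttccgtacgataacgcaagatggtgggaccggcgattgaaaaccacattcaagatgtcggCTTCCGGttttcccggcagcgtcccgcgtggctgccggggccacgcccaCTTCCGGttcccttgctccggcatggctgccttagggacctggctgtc
Mrpl9 promoter, chr3:94443086-94443385, plus strand: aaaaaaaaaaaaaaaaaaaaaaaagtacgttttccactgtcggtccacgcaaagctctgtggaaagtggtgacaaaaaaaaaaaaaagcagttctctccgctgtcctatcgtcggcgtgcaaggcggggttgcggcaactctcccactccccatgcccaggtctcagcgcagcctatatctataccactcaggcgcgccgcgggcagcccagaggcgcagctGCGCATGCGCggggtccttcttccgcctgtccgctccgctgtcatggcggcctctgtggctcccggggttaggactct

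Mrpl57 held both motifs, Mrpl30 and Mrpl9 a match to the NRF1 motif and Mrpl52 a pair of matches to the ETS motif. A window was listed for 69 of the 78 members, 3 of them with several windows. The NRF1 motif was present in 13 of the 69 (18.8%), against 11.3% of tested protein-coding genes, and the ETS motif in 26 (37.7%), against 19.6%. At least 1 of the pair was present in 35 members (50.7%, against 28.3%), and both in 4. The extended motif of YY1 was present in 5 members (7.25%, against 1.78%), the CREB site (TGACGTCA) in 2 (2.90%, against 3.51%) and the TATA box (TATAAA) in 5 (7.25%, against 9.16%). All motifs were searched on both strands, and a match is a run of letters, not a measured binding site. The median fitted log2 change was 0.24 in members with the NRF1 motif and 0.22 in those without, and 0.25 and 0.21 for the ETS motif.

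The next members in order of change were not called. The highest fitted value was that of Mrpl52, a large-subunit protein found only in mitochondria, with 189, 159 and 126 TPM with PBS and 185, 222 and 241 TPM with CSE. Its PBS libraries were widely spread, and PBS replicate 1 lay above CSE replicate 1. The fitted log2 change was 0.55 ± 0.18 (edgeR adjusted p = 0.0792). Mrpl52 passed the threshold in 5 of 18 alternative settings: DESeq2, GC and length trends removed, no filter on low counts, and without PBS replicate 1 or CSE replicate 1. Mrpl34 and Mrpl36, homologues of small bacterial large-subunit proteins, were both at 0.46 ± 0.16 (edgeR adjusted p = 0.101 and 0.0883). Mrpl34 was at 173, 136 and 149 TPM in PBS and at 165, 201 and 215 TPM in CSE, with overlap, while for Mrpl36 the lowest CSE value (34.5 TPM) lay above the highest PBS value (33.2 TPM). Mrps33, a small-subunit protein with no bacterial homologue, was at 77.0, 64.8 and 69.1 TPM in PBS and at 74.0, 86.5 and 104 TPM in CSE (0.42 ± 0.13, edgeR adjusted p = 0.0662).

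In all, 8 members had an adjusted p between 0.05 and 0.1, each with a higher fitted value. Mrpl42 (0.36 ± 0.10, edgeR adjusted p = 0.0524) and Mrpl3 (0.26 ± 0.08, adjusted p = 0.0543) were nearest to the threshold. Mrpl3 is a homologue of bacterial L3, which lies close to the catalytic centre. Mrps12, a homologue of the decoding-centre protein S12, was at 90.6, 95.8 and 81.6 TPM in PBS and at 108, 103 and 111 TPM in CSE. Its groups did not overlap, and its log2 change was 0.34 ± 0.11 (edgeR adjusted p = 0.0711). The others were Mrps33, Mrpl52, Mrpl47, Mrpl36 and Mrpl24.

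The 4 members with fitted values below 0 were Mrpl9, Mrps9, Mrpl49 and Mrpl28, and none was called. Mrpl9, a homologue of bacterial L9 (chromosome 3, 94443318 to 94451130, plus strand), was at 56.7, 61.8 and 59.7 TPM with PBS and at 54.4, 51.8 and 46.3 TPM with CSE. It was the single member whose CSE libraries lay below its PBS libraries on both scales, with a log2 change of −0.13 ± 0.07 (edgeR adjusted p = 0.271). Mrpl28 was at 193, 185 and 187 TPM in PBS and at 170, 171 and 167 TPM in CSE. Mrpl28 and Mrpl49 were also lower without overlap in TPM but overlapped in log2 CPM, where their changes were −0.06 ± 0.08 and −0.07 ± 0.08. Mrps9 was at −0.09 ± 0.08 and overlapped on both scales. The next lowest, Mrps11, was at 0.01 ± 0.08, and its sign turned with library-size scaling (−0.0038) and on the TPM scale (−0.12).

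The subunits and the origin of the proteins differed little in direction, and no test of a difference between these classes was made. Over all tested genes, 4.32% rose, 50.9% had higher fitted values and 12.6% had a higher value at an unadjusted p under 0.05. Among 30 large-subunit proteins with a bacterial homologue, 4 rose (13.3%), 28 had higher fitted values and the median log2 change was 0.26. Of 21 large-subunit proteins specific to mitochondria, which include Mrps30 and Mrps18a despite their symbols, 1 rose (4.76%), 20 had higher fitted values and the median was 0.24. The 16 small-subunit homologues held 1 that rose (6.25%) and had a median of 0.21. These 2 shares of 4.76% and 6.25% were near the background. The 10 small-subunit proteins specific to mitochondria had the lowest median, 0.11, and none was called by edgeR, although all 10 had higher fitted values and 3 of them an unadjusted p under 0.05; DESeq2 called Mrps33 of them and limma-voom none. Mrps36, named as a subunit but known as a part of the 2-oxoglutarate dehydrogenase complex, was at 0.18 ± 0.18.

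The stalk of the large subunit binds translation factors. Mrpl10, the stalk base, was at 296, 282 and 280 TPM in PBS and at 300, 289 and 269 TPM in CSE. These ranges overlapped fully, and the log2 change was 0.08 ± 0.08 (edgeR adjusted p = 0.541), with −0.0012 on the TPM scale. Mrpl12, the stalk protein itself, was at 188, 176 and 171 TPM in PBS and at 202, 204 and 184 TPM in CSE (0.24 ± 0.09, edgeR adjusted p = 0.105). Mrpl58, a peptidyl-tRNA hydrolase that rescues stalled ribosomes and sits in the large subunit, was at 0.24 ± 0.09 (edgeR adjusted p = 0.145).

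The transcripts of the members covered a wide range of levels. In mean TPM, which is a level per length, PBS values ran from 6.96 TPM for Mrpl23 to 301 TPM for Mrpl33, and the ratio of highest to lowest was 24.4 with Mrpl23 left out. The median member was at 77.2 TPM (PBS) and 83.6 TPM (CSE), with 19.4 and 18.5 TPM for all tested genes. Mrpl33, a homologue of bacterial L33, was at 377, 247 and 278 TPM in PBS and at 328, 346 and 418 TPM in CSE. PBS replicate 1 exceeded 2 of the CSE libraries, and the log2 change was 0.30 ± 0.16 (edgeR adjusted p = 0.273). The spread of Mrpl33 in PBS (301 ± 68.0 TPM) covers the means of Mrpl10 (286 TPM) and Mrpl30 (278 TPM), so the order of these 3 does not hold beyond their spread.

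The most abundant small-subunit members were Mrps17, Mrps21 and Mrps24. Mrps17, a homologue of bacterial S17, was at 178, 186 and 163 TPM in PBS and at 203, 198 and 194 TPM in CSE, without overlap, and its log2 change was 0.17 ± 0.08 (edgeR adjusted p = 0.238). Mrps21, a homologue of S21, was at 188, 157 and 146 TPM in PBS and at 173, 166 and 239 TPM in CSE. CSE replicate 3 was the highest library and PBS replicate 1 the next, and the change was 0.37 ± 0.21 (edgeR adjusted p = 0.309). Mrps24, a homologue of S3, was at 0.15 ± 0.10, or −0.17 when only its coding transcripts were counted. The PBS ranges of these 3 overlapped. The median coefficient of variation of TPM over members was 7.82% in PBS and 7.10% in CSE, against 11.8% and 8.93% for all tested genes. These sets were not matched for level, with PBS medians of 77.2 TPM for members and 19.4 TPM for all tested genes.

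Mrpl23, a homologue of a bacterial protein at the exit of the nascent chain tunnel, was the least abundant and the most variable member, at 6.25, 1.46 and 13.2 TPM in PBS and 3.21, 7.24 and 12.6 TPM in CSE. Of its 31-base words, 77.0% also occur in the pseudogene Mrpl23-ps1, and the gene took between 13.1% and 41.0% of the counts given to both. Summed, the pair stood at 48.8, 39.8 and 41.0 TPM in PBS and at 47.7, 54.0 and 49.0 TPM in CSE, a far smaller spread in which PBS replicate 1 overlapped the CSE range. Its own log2 change was 0.33 ± 0.44. Words of the most abundant transcript were shared with other genes in 47 members. They covered over 50% of that transcript in 5 of them, Mrpl53, Mrpl23, Mrps34, Mrps5 and Mrpl27, whose values may be uncertain for this reason. For Mrps5, however, the 1 other gene, a pseudogene, held only 0.036% as many counts as Mrps5 over all libraries.

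The most abundant transcript by mean TPM, a level per length that favours short transcripts, was not annotated as coding in 17 members. It was a target of nonsense-mediated decay in 6, a processed transcript in 6 and one with a retained intron in 5. In some of the 17, coding transcripts together still held most of the counts, such as Mrpl35 (86.0% in PBS) and Mrpl47 (80.8% in PBS). Coding transcripts held 87.0%, 86.9% and 86.0% of all member counts under PBS against 87.6%, 86.7% and 86.2% under CSE, and the groups overlapped. In PBS, 47 members had over 90% of their counts on coding transcripts and 8 had under 50%. Mrpl57 was among the 8, with 16.1%, and its fitted log2 change over coding transcripts alone was 0.70. The coding share was higher without overlap in CSE for 5 members and lower for 2, counts near the background of 4.71% and 2.91% of the tested genes with coding transcripts. Mrps10 had 80.9%, 76.6% and 76.5% in PBS and 82.0%, 83.0% and 84.7% in CSE, and Mrps14 had 55.0%, 59.6% and 54.7% in PBS and 53.6%, 53.6% and 47.6% in CSE. With 3 against 3 libraries, no exact permutation p under 0.1 can be reached for a single share, and none was computed.

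Member transcripts were short, with a median length of 1060 bases against 2537 bases for all tested genes, and short genes as a whole shifted with the same libraries. Relative to the PBS mean, the 1221 tested genes under 1000 bases had mean log2 CPM values of 0.10, −0.04 and −0.06 under PBS and −0.04, 0.12 and 0.25 under CSE. The 35 members under 1000 bases averaged 0.22, −0.12 and −0.09, and 0.08, 0.26 and 0.46 in the same order. Both sets were thus highest in CSE replicate 3 and, within PBS, in PBS replicate 1. The 43 longer members averaged 0.11, −0.04 and −0.07 in PBS and 0.11, 0.17 and 0.26 in CSE. Their 12230 tested counterparts averaged between −0.04 and 0.03. The difference between length and effective length, which follows the fragment length kallisto used, was 215, 267 and 220 bases with PBS and 251, 223 and 200 bases with CSE, lowest in CSE replicate 3 and PBS replicate 1.

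Fitted values were above 0 in 35 of 35 shorter and 39 of 43 longer members, against 69.7% and 49.1% of tested genes of the same length classes. A higher value at an unadjusted p under 0.05 was found in 48.6% of the shorter and 37.2% of the longer members, against 19.7% and 11.9%. Median fitted log2 changes were 0.30 for the shorter and 0.19 for the longer members, against 0.16 and −0.0053 for tested genes of the same length classes. After each library's GC and length trend was removed, these medians were 0.13 and 0.14 for members and 0.02 and 0.0087 for tested genes. Values near 0 for the tested genes follow from the removal itself, because the trend was fitted over them. On this scale, all members together averaged 0.08, −0.06 and −0.02 (PBS) and 0.09, 0.12 and 0.17 (CSE), so CSE replicate 1 lay just above PBS replicate 1. The members' median was 0.13, with 6 called higher (background 6.01%), of which 4 were among the 6 that edgeR called. On the log2(TPM + 1) scale the median was 0.14, while that of all tested genes was −0.06, and 1 member was called (background 1.8%). Fitted values above 0 numbered 62 of 78 members on this scale (38.2% of all genes), and 67 with GC and length trends removed (52.2%). With an offset for effective length in the edgeR fit, the members' median was 0.22, against −0.0008 over all tested genes. In that fit 72 of 78 members had fitted values above 0 (49.9% of all genes), and 4 were called higher (background 3.37%). The part of fragment length in the members' values was not otherwise tested.

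**Figure D4:**
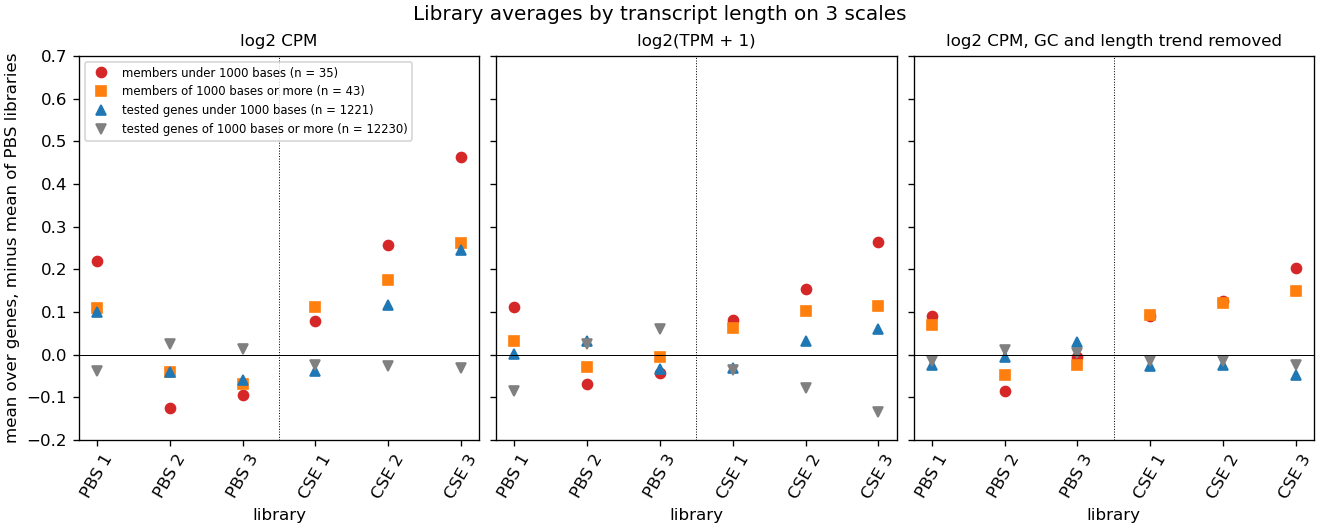
Mean over genes, relative to the mean of the PBS libraries, by library and on 3 log2 scales, for members under 1000 bases (circles, n = 35), members of 1000 bases or more (squares, n = 43) and tested genes of the same length classes (triangles, n = 1221 and n = 12230). In log2 CPM the short members and the short genes are both highest in CSE replicate 3. With GC and length trends removed, the members rank highest in CSE replicate 3. The short genes lie near 0 there by construction, because the trend was fitted over the tested genes and subtracted.

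Other lists of mitochondrial genes, which cover translation, biogenesis regulators, mitochondrially encoded proteins and mass markers, held few calls. Over 7 lists with 105 tested genes, edgeR's test called 5 higher (4.76%) and 1 lower (0.952%), against the background of 4.32% and 7.12%. The 5 ribosome subunits that carry another name held no edgeR call (1 with an unadjusted p under 0.05), while DESeq2 called Chchd1 and limma-voom none. Chchd1, a small-subunit protein, was at 249, 215 and 227 TPM in PBS and at 263, 290 and 360 TPM in CSE, without overlap, and its log2 change was 0.52 ± 0.16 (edgeR adjusted p = 0.0662). Aurkaip1 and Gadd45gip1 were at 0.21 and 0.25, and Ptcd3 and Dap3 at 0.06 and 0.04. The median of these 5 was 0.21.

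Of 26 assembly factors, Nsun4 alone was called, and it fell. NSUN4 is a methyltransferase that modifies the small ribosomal RNA and takes part in joining the subunits. Its level was 53.9, 59.9 and 51.6 TPM in PBS and 49.2, 37.2 and 41.1 TPM in CSE, without overlap, and it fell by 0.37 ± 0.08 on the log2 scale (edgeR adjusted p = 0.0156), a call lost without CSE replicate 2 or CSE replicate 3. Its direction was thus opposite to that of most members, although 21 of the 26 assembly factors had higher fitted values, with a median of 0.10.

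Among 18 tested translation factors, Gfm2, which recycles the ribosome after termination, rose from 8.72 ± 1.03 to 10.9 ± 0.925 TPM, by 0.38 ± 0.10 (edgeR adjusted p = 0.0276), and the list's median was 0.18. Like the members, most of this list (17 of 18) had higher fitted values. At an unadjusted p under 0.05, 4 translation factors had a higher value and 0 a lower one. The call of Gfm2 was lost without PBS replicate 2 or any 1 of the CSE libraries. Of 17 mitochondrial aminoacyl-tRNA synthetases, which load transfer RNAs with amino acids, 2 rose and 14 had higher fitted values, with a median of 0.12. An unadjusted p under 0.05 was reached by 7 synthetases with a higher value and by 0 with a lower one. Over all tested genes, 50.9% had higher fitted values, and 12.6% had a higher and 13.4% a lower value at an unadjusted p under 0.05. The glutamyl enzyme gene Ears2 was at 6.53, 7.56 and 8.16 TPM in PBS and at 10.3, 10.5 and 9.90 TPM in CSE, and it rose by 0.45 ± 0.10 (edgeR adjusted p = 0.0143). The tyrosyl enzyme gene Yars2 rose by 0.36 ± 0.08, from 53.1 ± 0.971 to 64.1 ± 2.93 TPM (edgeR adjusted p = 0.0178). Both calls were lost without CSE replicate 2 or CSE replicate 3, and that of Yars2 also without PBS replicate 3.

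The products that this ribosome makes were not called at the RNA level. Of 13 mitochondrially encoded proteins, edgeR called 0, none had an unadjusted p under 0.05, and DESeq2 and limma-voom called 0. Their median log2 change was 0.14, and 9 had higher fitted values. The 3 of smallest p were mt-Atp6 (0.31 ± 0.15), mt-Co3 (0.47 ± 0.23) and mt-Nd1 (0.21 ± 0.11). Their edgeR adjusted p was 0.214, 0.229 and 0.238 in this order, and the groups of each overlapped in TPM. Among 13 regulators of mitochondrial biogenesis, edgeR, DESeq2 and limma-voom called none, while 3 with a higher and 1 with a lower value had an unadjusted p under 0.05. The median of the 13 was 0.09, with Myc at 0.19 ± 0.08, Tfam, the packaging factor of mitochondrial DNA, at 0.17 ± 0.07 and Nrf1 at −0.25 ± 0.09 (edgeR adjusted p = 0.132, 0.158 and 0.108). The level of Nrf1 was 29.1, 28.4 and 28.9 TPM in PBS and 26.0, 24.3 and 18.8 TPM in CSE, without overlap. Of 13 genes often used as markers of mitochondrial mass, Hspd1, the matrix chaperonin, rose by 0.45 ± 0.07 (edgeR adjusted p = 0.00183), from 363 ± 33.5 to 469 ± 5.76 TPM, and cytochrome c, Cycs, by 0.33 ± 0.09 (edgeR adjusted p = 0.0425). Their list's median was 0.07. The call of Cycs was lost without any 1 of the libraries but PBS replicate 1, and that of Hspd1 was kept without each. On the TPM scale, Hspd1 alone of the 6 called genes in these lists kept its call.

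**Figure D5:**
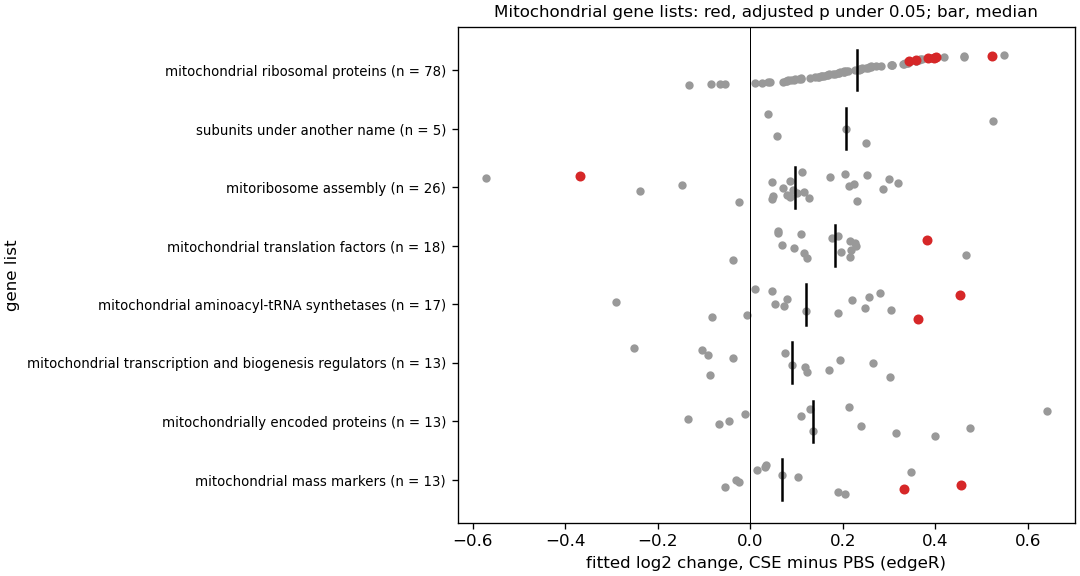
Fitted log2 change (CSE minus PBS, edgeR) of each tested gene in 8 lists of mitochondrial genes; red points passed an adjusted p under 0.05 and the bar is the list's median. The 78 mitochondrial ribosomal protein genes lie mostly between 0 and 0.5 with a median of 0.23, and the red point below 0 is Nsun4.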

How the data were processed

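The authors deposited, for each library, estimated counts and TPM values per transcript, per the file headers, which follow kallisto's output format. Every library's TPM values have the same sum. Tools listed in the submitters' processing notes are FastQC 0.12.1, fastp 0.20.1, kallisto 0.46.2 and DESeq2 1.40.2, with the build GRCm38. Their roles and settings, strand included, are not given in those notes. The kallisto tool divides reads that fit several transcripts by a model.

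GENCODE vM21 on GRCm38 holds 116816 of the 118489 transcripts (98.6%), by versioned identifier. Estimated counts and TPM were summed per gene, and counts were rounded to whole numbers. CSE was compared with PBS, 3 libraries each, with edgeR's two-sided quasi-likelihood test (TMM scaling, filterByExpr with a minimum count of 10, treatment as the one factor), adjusted by Benjamini-Hochberg over 13451 genes with a threshold of 0.05. SE is the fitted log2 change divided by the root of its F statistic. No libraries of a group were duplicates. The procedure was tested on simulated data. Mean differences per library are described with no test.

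Members described singly were those called, the 5 highest and 5 lowest fitted changes among members of at least 5 TPM, and the 3 most abundant of each subunit. In the other lists, they were the called genes or the 3 of smallest p. Other members and genes named with values, such as Mrps12, Mrpl3, Mrpl12, Mrpl58, Mrps36, Mrpl23, Mrps10, Mrps14, Aurkaip1, Ptcd3 and Dap3, were chosen after their values were seen. The members and lists were chosen with earlier results of these data known. The symbol Mtrfr of the translation factor list had no match. The value of 1 leukocyte marker is not reported here. Shared sequence was searched as 31-base words. Other settings tried were DESeq2, limma-voom, scaling by RLE or library size, limma on log2(TPM + 1) and log2(TPM + 0.1), 2 other count filters, an offset for effective length, a loess fit on GC and length subtracted per library, coding transcripts only, the replicate number as a block, and each library left out in turn. Computations used Python 3.11.15 with matplotlib 3.10.9 and pandas 2.3.3, and R 4.3.3 with DESeq2 1.42.0, edgeR 4.0.16 and limma 3.58.1.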

Additional observations from a re-analysis of the deposited data

How the results depend on the processing

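The number of members called higher, 6 by edgeR, was 10 with DESeq2 (4.97% of all genes), 24 with no filter on low counts (4.61%) and 1 with limma on log2(TPM + 1) or log2(TPM + 0.1) (1.8% and 1.76%), and between 1 and 27 with 1 library left out; no alternative called a member lower. Related genes called higher, 5 by edgeR, numbered 10 with the GC and length trend removed, 13 with no filter, 3 with coding transcripts only, 2 with the replicate block and 1 with limma on either TPM scale, and 1 to 15 with 1 library left out. Related genes called lower, 1 by edgeR, numbered 2 with DESeq2, 3 with no filter, and 0 with limma on either TPM scale or with the effective length offset, and 0 to 2 with 1 library left out. The median over members stayed above 0 in each alternative, between 0.13 and 0.32. The replicate numbers did not pair the libraries (correlations of deviations −0.12, 0.006 and −0.06), and the block left 5 members called, all among the 6.

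Fitted values above 0, 74 by edgeR, numbered 62 with limma on either TPM scale, where 12 members turned sign, 67 with the GC and length trend removed, and 69 to 75 with 1 library left out. Among members named by rule, signs turned for Mrpl10 (−0.0012 with limma on either TPM scale), Mrpl28 (−0.097 to 0.024 with 1 library left out), Mrps24 (−0.17 with coding transcripts only) and Mrps11 (−0.061 with the GC and length trend removed, −0.0038 with library-size scaling, −0.12 with limma on either TPM scale, −0.046 with the offset, and −0.031 to 0.044 with 1 library left out). None of these 4 was called. Mrpl23 also turned, to −0.05 without CSE replicate 3 and −0.03 without PBS replicate 2. The cause was not tested. The median SE of a member's log2 change was 0.10 with 3 libraries a group, against a median change of 0.23.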

Other observations

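Members often start back to back with another protein-coding gene. A gene on the opposite strand began within 1000 bases upstream of 18 of the 78 members (23.1%), against 10.2% of tested protein-coding genes, at a median distance of 82 bases. Of the 18 members, 17 had higher fitted values, with a median log2 change of 0.21, and of their 18 tested neighbours 11 had, with a median of 0.08. The edgeR test called none of the neighbours, and DESeq2 and limma-voom called 0. An unadjusted p under 0.05 was reached by 3 neighbours, 1 of them with a higher value (background 12.6% higher and 13.4% lower). Members and neighbours were not matched for transcript length. Mrpl57 and its neighbour Ska3, which takes part in chromosome segregation, start 49 bases apart and had log2 changes of 0.52 ± 0.12 and 0.15 ± 0.07. Mrpl30 and Mitd1 start 66 bases apart, at 0.34 ± 0.09 and 0.10 ± 0.14. Mrps12 and Sars2, the mitochondrial seryl-tRNA synthetase, start 172 bases apart, at 0.34 ± 0.11 and 0.12 ± 0.12. Mrpl49 lay on the other side, at −0.07 ± 0.08, while Fau, which encodes a cytosolic ribosomal protein and starts 59 bases away, was at 0.28 ± 0.17. These pairs were chosen after their values were seen, and no difference within a pair was tested.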
